A study of Mus musculus with 26 samples.

Results

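The 10 genes E2f6, Mga, Max, L3mbtl2, Pcgf6, Rybp, Setdb1, Ehmt2, Trim28 and Dnmt3a encode proteins that keep germ cell genes silent outside the germline. They were taken by name for that role and not by a rule on level or change, though earlier results of these data were known. All came from the 55487 genes counted in the RNA libraries, and each was found. E2F6, MGA, MAX, L3MBTL2, PCGF6 and RYBP belong to PRC1.6, a Polycomb complex that is brought to E2F sites and E-boxes in the promoters of meiotic genes and places ubiquitin on histone H2A. SETDB1 and EHMT2 (G9a) methylate histone H3 at lysine 9, TRIM28 (KAP1) brings SETDB1 to zinc-finger proteins, and DNMT3A methylates DNA, a mark that many germ cell promoters carry in body tissues. In neurons DNMT3A also writes methylation outside CpG sites.

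The study asked how an Adnp frameshift alters the frontal cortex of adolescent mice. Animals with the frameshift on 1 allele (HET) were set against littermates without it (WT); ADNP is a zinc-finger homeodomain protein that binds the chromatin remodeller CHD4 and HP1 proteins. RNA was sequenced from 7 HET and 7 WT mice, and open chromatin (ATAC-seq) was deposited as 1 merged peak list per genotype. The tissue was sampled whole, and the labels state no strain or sex. Library totals were 33280785 to 47079906 counts in HET and 32814841 to 48291175 counts in WT. The labels call 4 of the HET libraries (1 to 4) total RNA and the other 3, like all 7 WT libraries, polyA RNA.

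Adnp itself averaged 6.90 ± 1.30 CPM (counts scaled to library size by TMM) in HET and 6.55 ± 0.875 CPM in WT, with an adjusted p of 0.772 in edgeR; a frameshift need not lower the transcript, so this does not check the labels. Camk2a, a kinase gene of cortical excitatory neurons, was read in both genotypes, at 1924 ± 867 CPM in the 7 HET libraries and 3183 ± 869 CPM in the 7 WT libraries, each with its SD. The 10 excitatory neuron markers summed to 1015 to 6633 CPM in HET and 2892 to 8658 CPM in WT, with a negative fold change for 10 of 10. The 8 thalamic markers summed to 215 to 1956 CPM in HET and 147 to 674 CPM in WT, with 8 of 8 positive. None of these markers was called by edgeR, and 6 excitatory and 4 thalamic ones had an unadjusted p under 0.05. HET 4 had the lowest excitatory and the highest thalamic sum, and HET 6 the highest excitatory sum among HET. In such whole tissue, fewer cells of a type and less RNA per cell cannot be told apart, and the part of this make-up in the values below was not tested except where a fit with the markers as covariates is given.

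No repressor gene was called different between the genotypes. With edgeR's quasi-likelihood test and an adjusted p under 0.05, 0 of the 10 were called, beside 0.97% of the 18050 genes tested (106 or 0.587% higher and 69 or 0.382% lower in HET). An unadjusted p under 0.05 was reached by 0 of 10, where 22.2% of all tested genes had one. DESeq2 and limma-voom called 0 of 10 as well, where they called 8.66% and 10.7% of the genes they tested. The fold changes were small: 9 were positive and 1 negative, the median log2 fold change was 0.04 against 0.02 over all tested genes, and the median size 0.05 against 0.15. The 95% intervals of all 10 lay within a 1.5-fold change in either direction, as did those of 59.7% of all tested genes. In WT level per length the 10 ran from Pcgf6, with 49.7% of tested genes at or below it, to Ehmt2, with 93%. Neither the median size nor the intervals were set against genes of like level. The bounds farthest from no change were 0.846-fold, the lower bound of Ehmt2, and 1.20-fold, the upper bound of Dnmt3a. The HET and WT ranges overlapped for all 10, whereas 0.715% of all tested genes had ranges that did not overlap.

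**Figure D1:**
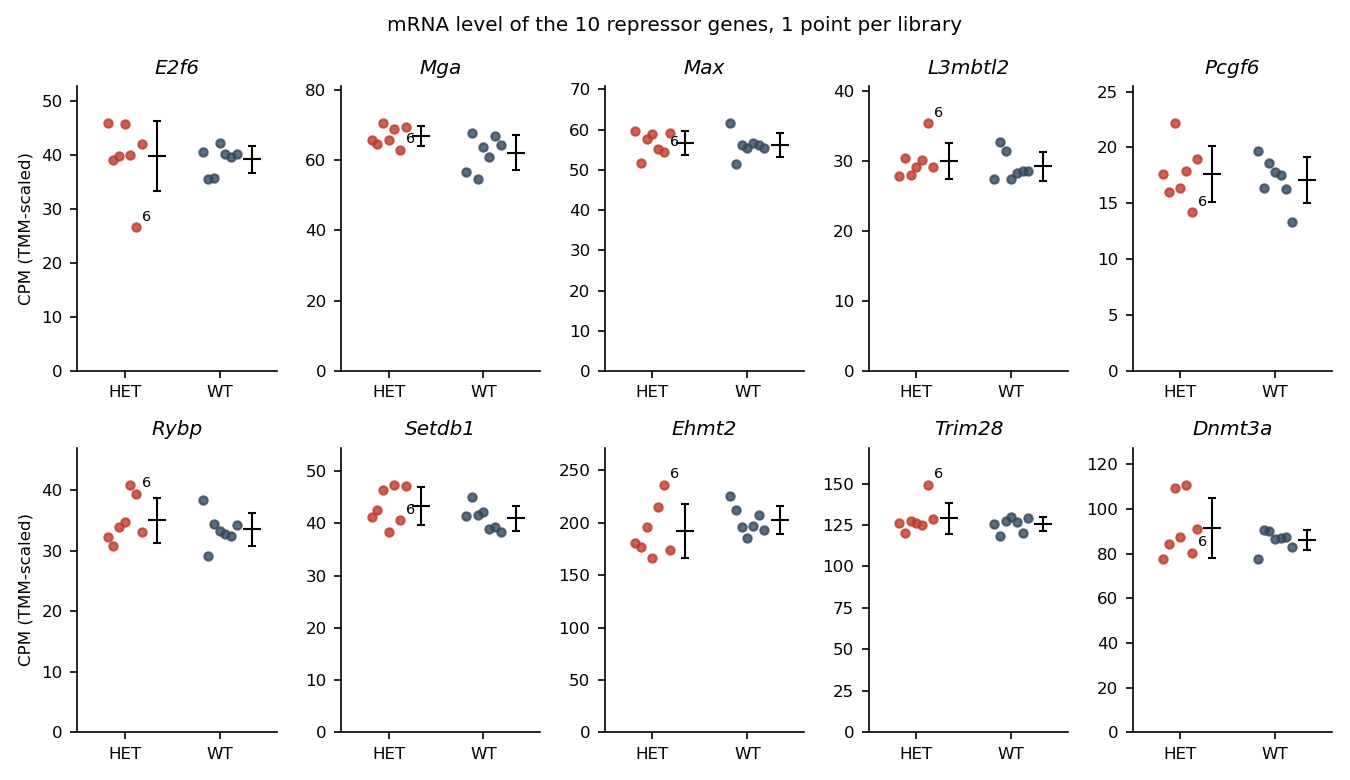
Level of each repressor gene in CPM (vertical axes from 0) in HET (red, left) and WT (blue, right), 1 point per library, with the mean and SD in black and HET 6 numbered. The point clouds overlap in all 10 panels, and HET 6 stands alone for E2f6 at 26.6 CPM and for Trim28 at 149 CPM.

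E2f6 (ENSMUSG00000057469, GRCm38 chr12:16810963-16839742, plus strand) encodes an E2F protein that represses rather than activates and binds DNA with a DP partner. It was read at 26.6, 39.9 and 45.9 CPM (lowest, median and highest library) in HET and at 35.6, 40.2 and 42.2 CPM in WT. A single HET library lay below all WT libraries and 2 others lay above them. The means were 39.8 ± 6.46 CPM in HET and 39.1 ± 2.48 CPM in WT, a log2 fold change of 0.025 (SE 0.097, adjusted p 0.905 in edgeR). The lowest value came from HET 6, and without that library the log2 fold change was 0.103 (adjusted p 0.259 in edgeR), still not called. Max (ENSMUSG00000059436, chr12:76937269-76962201, minus strand) encodes the shared partner of MGA and of the MYC and MXD proteins, which binds the E-box CACGTG. It ran at 51.8, 57.6 and 59.6 CPM in HET and 51.4, 56.1 and 61.6 CPM in WT, so that all HET libraries fell in the WT range. Its log2 fold change was 0.015 (SE 0.048, adjusted p 0.888 in edgeR).
The promoters of both genes are shown because each holds 1 match to the letters its own product is known to bind. The sequences are RefSeq's on GRCm38.p6, from 250 bases before to 50 after the gene start, in the direction of transcription. Capitals mark GCGGGA, the core of an E2F site, at chr12:16810912-16810917 in E2f6, and the E-box at chr12:76962246-76962251 in Max.
E2f6 promoter, chr12:16810715-16811014, plus strand: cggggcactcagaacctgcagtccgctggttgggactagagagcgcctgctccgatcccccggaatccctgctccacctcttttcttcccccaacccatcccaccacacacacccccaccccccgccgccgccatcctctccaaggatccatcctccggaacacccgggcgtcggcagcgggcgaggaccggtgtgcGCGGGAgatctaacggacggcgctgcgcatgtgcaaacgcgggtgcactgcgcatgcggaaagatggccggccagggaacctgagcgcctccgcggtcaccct
Max promoter, chr12:76962199-76962498, minus strand: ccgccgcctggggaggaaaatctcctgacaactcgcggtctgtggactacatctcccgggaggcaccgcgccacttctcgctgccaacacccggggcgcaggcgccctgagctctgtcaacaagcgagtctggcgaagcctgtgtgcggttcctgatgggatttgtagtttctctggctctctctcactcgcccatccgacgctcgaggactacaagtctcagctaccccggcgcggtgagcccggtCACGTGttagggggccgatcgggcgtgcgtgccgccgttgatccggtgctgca
Both matches lay inside a peak of the HET list and of the WT list. A match describes letters, and binding was not measured.

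Mga (ENSMUSG00000033943, chr2:119897228-119969581, plus strand) encodes the large scaffold of PRC1.6, which has a T-box domain and a domain that pairs with MAX. It gave the smallest adjusted p of the 10. The libraries read 63.0, 65.6 and 70.5 CPM in HET and 54.7, 63.8 and 67.6 CPM in WT. The WT maximum was exceeded by 3 HET libraries and none fell below the WT minimum. The means were 66.8 ± 2.83 CPM in HET and 62.1 ± 4.96 CPM in WT, a log2 fold change of 0.105 (SE 0.054, adjusted p 0.268 in edgeR).

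L3mbtl2 (ENSMUSG00000022394, chr15:81663889-81688315, plus strand) encodes an MBT-repeat protein of the complex that binds histones. Its levels were 27.8, 29.2 and 35.4 CPM in HET and 27.45, 28.5 and 32.8 CPM in WT, with 1 HET library above the WT range. Of its exon bases 17.2% are shared with Chadl, where strand was ignored in counting and reads that overlapped both genes were left out by default. Pcgf6 (ENSMUSG00000025050, chr19:47033617-47050906, minus strand) encodes the ring finger protein that sets PRC1.6 apart from the other PRC1 complexes. It read 14.2, 17.6 and 22.2 CPM in HET and 13.35, 17.5 and 19.7 CPM in WT. Rybp (ENSMUSG00000072872, chr6:100228565-100287485, minus strand) encodes a protein that binds RING1 and RNF2 and raises their activity. It read 30.8, 33.98 and 40.95 CPM in HET and 29.1, 33.3 and 38.35 CPM in WT, with 2 HET libraries above the WT range. The log2 fold changes were 0.04 (SE 0.06) for L3mbtl2, 0.04 (SE 0.10) for Pcgf6 and 0.06 (SE 0.07) for Rybp, with adjusted p of 0.759, 0.836 and 0.651 in edgeR.

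Setdb1 (ENSMUSG00000015697, chr3:95323525-95357202, minus strand) encodes the methyltransferase that works with TRIM28. It was read at 38.35, 42.55 and 47.4 CPM in HET and at 38.37, 41.4 and 45.04 CPM in WT. Above the WT range lay 3 HET libraries, and 1 lay just below it. The means were 43.4 ± 3.60 CPM in HET and 40.95 ± 2.34 CPM in WT, a log2 fold change of 0.08 (SE 0.06, adjusted p 0.425 in edgeR). Trim28 (ENSMUSG00000005566, chr7:12999114-13031035, plus strand) was read at 120.3, 126 and 149 CPM in HET and 119, 127 and 129.8 CPM in WT. Apart from HET 6 all HET libraries fell in the WT range, and its log2 fold change was 0.04 (SE 0.05, adjusted p 0.675 in edgeR).

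Ehmt2 (ENSMUSG00000013787, chr17:34898469-34914052, plus strand) was the single gene of the 10 with a negative fold change. Its levels were 166, 180.5 and 236 CPM in HET and 186, 196.5 and 225 CPM in WT. Below the WT minimum lay 4 HET libraries, while HET 6 lay above the WT maximum. The means were 192 ± 25.5 CPM in HET and 202 ± 13.4 CPM in WT, a log2 fold change of -0.07 (SE 0.08, adjusted p 0.611 in edgeR). It stayed negative in 14 of 14 fits with 1 library left out (-0.131 to -0.042). It was positive, and not called, in fits with the 3 HET libraries labelled polyA RNA alone (0.04), with the excitatory marker mean as a covariate (0.046) and with 3 marker covariates (0.037). Between the labels, Ehmt2 averaged 179.7 ± 12.3 CPM in the 4 HET libraries labelled total RNA and 209 ± 31.7 CPM in the 3 labelled polyA RNA (edgeR adjusted p 0.667, the smallest of the 10 genes, which Rybp shares), and 0 of 18637 genes (0.0%) were called between the labels. With 4 against 3 libraries, all HET, this absence of calls cannot show that the label made no difference. The promoter of Ehmt2 is shown because it alone among the 9 with a sequence holds both kinds of match, 2 E-boxes and 1 E2F core, marked in capitals.
Ehmt2 promoter, chr17:34898224-34898523, plus strand: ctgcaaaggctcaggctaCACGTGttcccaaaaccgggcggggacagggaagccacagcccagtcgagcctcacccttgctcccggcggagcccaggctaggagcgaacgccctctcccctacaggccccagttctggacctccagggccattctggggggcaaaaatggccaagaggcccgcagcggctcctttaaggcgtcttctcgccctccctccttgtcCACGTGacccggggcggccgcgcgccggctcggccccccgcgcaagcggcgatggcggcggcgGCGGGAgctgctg

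Dnmt3a (ENSMUSG00000020661, chr12:3806007-3914443, plus strand) varied more between HET than between WT libraries. It was read at 77.6, 87.6 and 111 CPM in HET and at 77.4, 87.2 and 90.5 CPM in WT. HET 3, HET 5 and HET 7 were above all WT libraries, and none was below. The means were 91.65 ± 13.4 CPM in HET and 86.1 ± 4.53 CPM in WT, a log2 fold change of 0.09 (SE 0.08, adjusted p 0.536 in edgeR). The coefficient of variation was 14.65% in HET and 5.26% in WT for Dnmt3a, and it was higher in HET for 8 of the 10 genes (all but Mga and Max). Among all tested genes 61.5% had a higher coefficient in HET, and the 2 shares were not tested against each other.

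**Figure D2:**
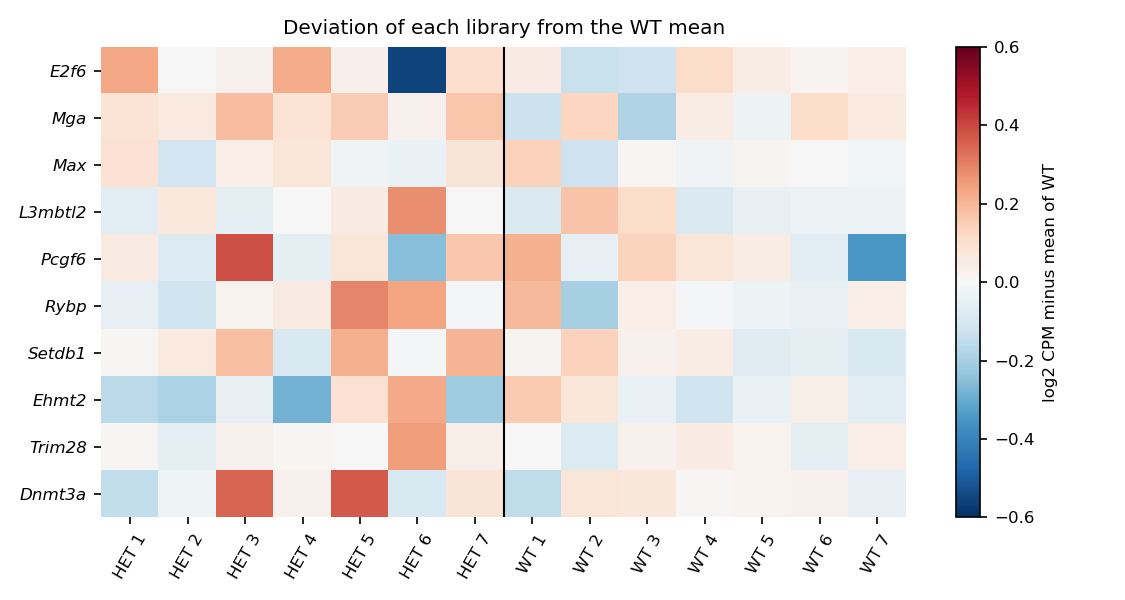
Log2 CPM of each repressor gene in each library minus the mean of the WT libraries (colour scale from -0.6 to 0.6), HET left and WT right of the line. HET 6 is the lowest for E2f6 (-0.55) and among the highest for L3mbtl2 (0.28), Trim28 (0.25) and Ehmt2 (0.23); HET 3 and HET 5 are the highest for Dnmt3a (0.35 and 0.37).

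Levels can be set against each other between genes only per length, here as RPKM over the union of exons, which lowers the values of genes with long annotated exons such as Dnmt3a (16642 bases) and Mga (15340 bases). On this scale the order of the 10 was the same in both genotypes. Ehmt2 stood highest at 35.0 RPKM in HET and 36.85 RPKM in WT, with 93% of tested genes at or below it in both genotypes, followed by Trim28 at 31.0 RPKM in HET and 30.2 RPKM in WT. Max stood at 15.8 RPKM in HET and 15.6 RPKM in WT. The other 7 ran from Rybp, at 7.40 RPKM in HET and 7.08 RPKM in WT, down to Pcgf6, at 3.50 RPKM in HET and 3.40 RPKM in WT. Neighbours whose library ranges overlapped in both genotypes were Rybp and E2f6, E2f6 and Setdb1, Dnmt3a and L3mbtl2, and Mga and Pcgf6; Ehmt2 and Trim28, and Setdb1 and Dnmt3a, overlapped in HET alone.

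**Figure D3:**
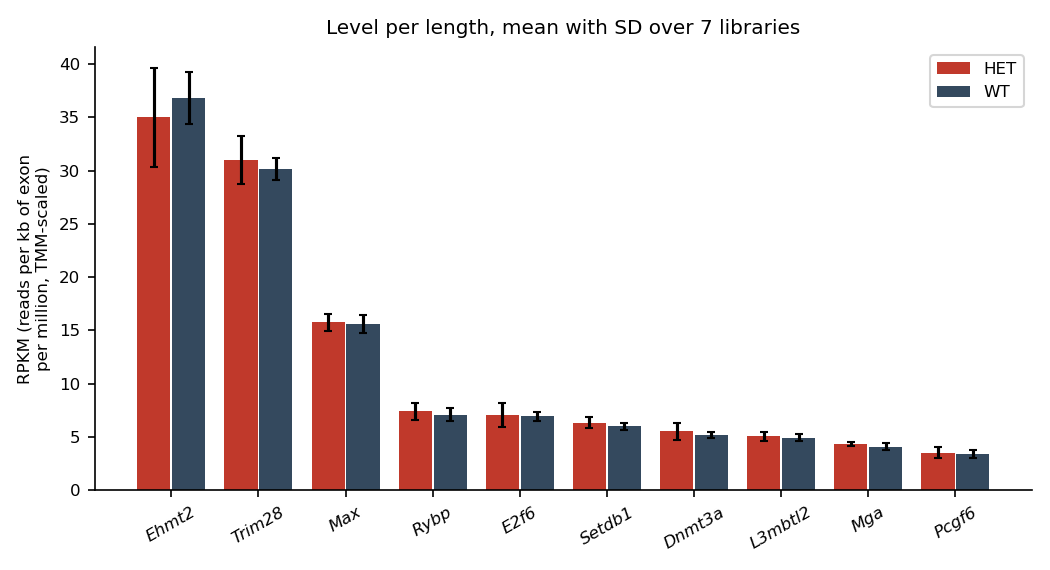
Mean RPKM with SD over 7 libraries for each repressor gene, HET (red) left of WT (blue), ordered by the WT level. Ehmt2 and Trim28 exceed 30 RPKM in both genotypes, and Pcgf6 is lowest at 3.50 RPKM in HET and 3.40 RPKM in WT.

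Close relatives of the repressors were present at these per-length levels. Ehmt1, the partner of EHMT2, stood at 3.735 RPKM in HET and 3.85 RPKM in WT, and the maintenance methyltransferase gene Dnmt1 at 8.47 RPKM in HET and 8.28 RPKM in WT. Dnmt3b was low, at 0.1503 RPKM in HET and 0.133 RPKM in WT, and Dnmt3l, whose product helps DNMT3A in germ cells, was too low to test. Yaf2, the relative of Rybp, stood above it at 46.7 RPKM in HET and 54.45 RPKM in WT. The 4 of these relatives that were tested were not called by edgeR, while limma-voom called Yaf2 lower in HET (log2 fold change -0.215, adjusted p 0.0448).

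The genes that work beside the 10 were read from lists chosen with earlier results of these data known, and their counts with an unadjusted p under 0.05 stand beside 22.2% of all tested genes. Of the other 10 PRC1.6 subunits, 0 were called by edgeR and 2 had an unadjusted p under 0.05, with a median log2 fold change of -0.04. These were Yaf2 (log2 fold change -0.22, adjusted p 0.121) and the HP1 gene Cbx1 (-0.155, adjusted p 0.156 in edgeR). Of the 25 genes of other PRC1 complexes 0 were called and 8 had an unadjusted p under 0.05, and the 2 smallest were Cbx7 (0.18, adjusted p 0.0660) and Bcorl1 (-0.24, adjusted p 0.0905). Of the 11 genes of the MAX network 0 were called and 4 had an unadjusted p under 0.05, led by Mycn (-0.47, adjusted p 0.06835) and Mxi1 (-0.28, adjusted p 0.142). Of the 22 tested genes for H3K9 methylation and the HUSH complex 0 were called and 3 had an unadjusted p under 0.05, led by the HP1 gene Cbx5 (0.215, adjusted p 0.0641) and Prdm16 (0.43, adjusted p 0.103). Of the 14 tested genes of DNA methylation reported here 0 were called and 4 had an unadjusted p under 0.05, led by the demethylation genes Tet3 (-0.37, adjusted p 0.116) and Tdg (-0.37, adjusted p 0.126 in edgeR). In these 5 lists DESeq2 called 3 genes higher (Cbx7, Cbx5 and Prdm16) and 3 lower (Bcorl1, Cbx6 and Mycn), and limma-voom called 4 higher (Cbx7, Phc3, Cbx5 and Tet1) and 5 lower (Yaf2, Bcorl1, Cbx6, Mycn and Tdg), where they called 8.66% (DESeq2) and 10.7% (limma-voom) of all genes they tested.

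E2f2, an activating E2F, rose in HET, the single call among 7 tested E2F genes. Of the 7, 5 had a negative fold change, and the median log2 fold change was -0.13. An unadjusted p under 0.05 was reached by 2 of them, beside 22.2% of all tested genes. These were E2f2 and E2f8, which was lower in HET (-1.04, from at least 2 counts per library). E2f2 was read at 1.45, 2.005 and 2.62 CPM in HET and 0.805, 1.05 and 1.42 CPM in WT, so that all 7 HET libraries were above all WT libraries. The log2 fold change was 0.895 (SE 0.174, adjusted p 0.0375 in edgeR), from at least 31 counts per library. The call was lost without any 1 of HET 1, 2, 4 or 7 or of WT 1, 2, 3, 5, 6 or 7, with an adjusted p of at most 0.0940 in edgeR. With 1 library left out its log2 fold change ran from 0.828 to 0.969, and 0.0603% to 9.18% of all genes were called. The call was also lost with the excitatory covariate (log2 fold change 0.88, 0.0609% of all genes called), with 3 marker covariates (0.885, 0.116%) and with the HET libraries labelled polyA RNA alone (0.994, 0.0211%). It was lost with no filter on low counts (0.892, adjusted p 0.0522 in edgeR) and without HET 4 and HET 6 together, chosen after seeing the data (0.75, adjusted p 0.0633 in edgeR). DESeq2 and limma-voom called E2f2 higher.

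Germline genes, many of them known to lose silencing in mouse cells that lack PRC1.6, H3K9 or DNA methyltransferases, were read as the repressors' targets. The list held 76 genes; 36 were below the filter on low counts in these libraries, and of the 40 tested 7 rose and 0 fell by edgeR's test, beside 0.587% of all tested genes called higher. A gene that is high in 1 genotype passes the filter through it, and some of the list was known to be higher in these mice, so the count is a description. The 7 were Sycp2, Prss41, Prss50, Rnf17, Syce1, Rec8 and Tdrd9. Sycp2 and Syce1 encode parts of the synaptonemal complex, Rec8 a cohesin of meiosis, Tdrd9 and Rnf17 Tudor-domain proteins of germ cells, and Prss41 and Prss50 testis proteases. The 3 that held in fewer than 6 of the 14 fits with 1 library left out were Rec8, Syce1 and Tdrd9.

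Rec8 had the highest level per length of these (6.48 RPKM in HET and 1.902 RPKM in WT), and was read at 14.4, 17.4 and 25.1 CPM in HET and 2.56, 4.57 and 12.6 CPM in WT. All 7 HET libraries exceeded all WT libraries, with a log2 fold change of 1.76 (SE 0.31, adjusted p 0.03315 in edgeR). Tdrd9 read 0.5285, 1.10 and 1.31 CPM in HET and 0.310, 0.429 and 0.694 CPM in WT, with 6 of 7 HET libraries above the WT maximum and a log2 fold change of 1.13 (SE 0.25, adjusted p 0.0482 in edgeR). Syce1 read 0.313, 0.734 and 1.06 CPM in HET and 0, 0.0929 and 0.198 CPM in WT, from at most 48 counts per library. Its log2 fold change was 3.00 (SE 0.53, adjusted p 0.03315 in edgeR). Rec8 and Tdrd9 were each lost without HET 1, 2, 4 or 7 or WT 1, 2, 3, 5, 6 or 7, Tdrd9 also without HET 3 or 5, and Syce1 without the same libraries as Rec8 except WT 2; the highest adjusted p were 0.0818 for Rec8 and Syce1 and 0.115 for Tdrd9 in edgeR. In these fits the log2 fold change ran from 1.64 to 2.11 for Rec8, from 1.06 to 1.25 for Tdrd9 and from 2.78 to 3.43 for Syce1. Sycp2, Prss41, Prss50 and Rnf17 were called in 14 of 14 such fits. With the polyA label alone 4 of the 7 were lost: Prss50 (log2 fold change 2.38, adjusted p 0.103), Rec8 (1.52, 0.412), Syce1 (2.45, 0.412) and Tdrd9 (1.08, 0.420 in edgeR). Rec8, Syce1 and Tdrd9 were also lost with the excitatory covariate, Syce1 and Tdrd9 with 3 marker covariates, Rec8 and Tdrd9 with no filter, and Tdrd9 without HET 4 and HET 6 together. DESeq2 and limma-voom called all 7 higher. With 1 library left out the list gave 4 (without HET 1) to 9 (without HET 6) genes higher. The remaining 33 tested genes had no call, and the median log2 fold change of the 40 was 0.22 against 0.02 over all tested genes. The filter and the earlier knowledge of some of these genes bear on this median too, so it is likewise a description.

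**Figure D4:**
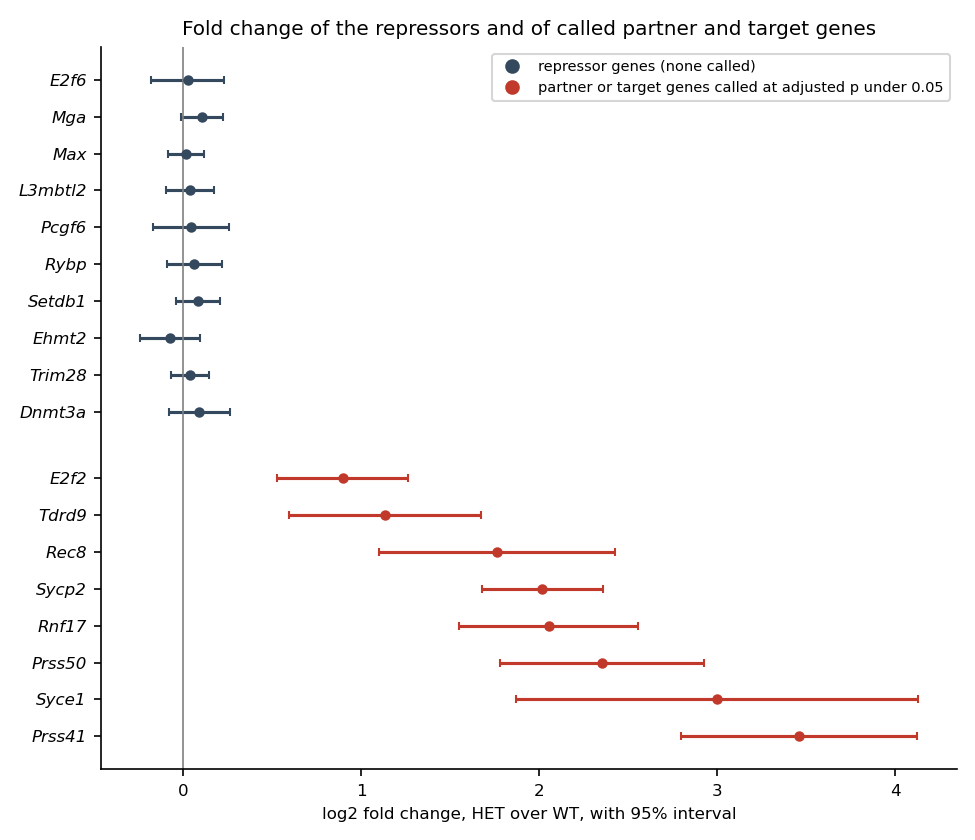
Log2 fold change of HET over WT with its 95% interval for the 10 repressor genes (blue, above) and for the called E2f2 and germline target genes (red, below). The repressors lie between -0.07 and 0.105, and the called germline targets between 1.13 for Tdrd9 and 3.46 for Prss41.

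Spermatogenic marker genes, which mark later male germ cells, gave no call: 3 of 10 were tested, the 10 summed to 2.735 to 4.56 CPM in HET and 1.51 to 3.04 CPM in WT, and Tnp1 and Pgk2 were at 0 in all 14 libraries. The 3 tested all had a positive fold change (median log2 fold change 0.355), and 1 had an unadjusted p under 0.05. The promoters of 3 called targets were picked for holding the letters PRC1.6 proteins bind, which 3 of the 6 called targets with a sequence do; Sycp2 is shown beside them as one that holds none of them. Capitals mark GCGGGA or its reverse complement TCCCGC (Prss50 and Rec8) and the E-box CACGTG (Tdrd9).
Prss50 promoter, chr9:110857717-110858016, plus strand: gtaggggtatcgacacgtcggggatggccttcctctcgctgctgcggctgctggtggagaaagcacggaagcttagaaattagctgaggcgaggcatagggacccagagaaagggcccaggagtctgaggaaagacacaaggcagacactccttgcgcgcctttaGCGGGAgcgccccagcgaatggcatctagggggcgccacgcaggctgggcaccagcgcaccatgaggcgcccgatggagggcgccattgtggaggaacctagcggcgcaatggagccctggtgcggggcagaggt
Rec8 promoter, chr14:55617916-55618215, plus strand: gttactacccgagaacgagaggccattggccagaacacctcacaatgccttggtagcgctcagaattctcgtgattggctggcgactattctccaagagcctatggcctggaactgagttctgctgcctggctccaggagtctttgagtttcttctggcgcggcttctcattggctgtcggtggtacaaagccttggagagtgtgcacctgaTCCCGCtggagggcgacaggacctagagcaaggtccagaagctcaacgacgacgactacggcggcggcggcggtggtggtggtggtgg
Tdrd9 promoter, chr12:111971309-111971608, plus strand: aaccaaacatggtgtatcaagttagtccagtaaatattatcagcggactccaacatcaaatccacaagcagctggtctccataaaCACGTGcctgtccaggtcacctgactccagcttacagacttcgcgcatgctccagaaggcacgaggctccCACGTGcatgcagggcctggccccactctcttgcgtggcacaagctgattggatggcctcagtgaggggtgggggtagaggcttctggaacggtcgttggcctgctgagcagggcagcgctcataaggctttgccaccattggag
Sycp2 promoter, chr2:178407609-178407908, minus strand: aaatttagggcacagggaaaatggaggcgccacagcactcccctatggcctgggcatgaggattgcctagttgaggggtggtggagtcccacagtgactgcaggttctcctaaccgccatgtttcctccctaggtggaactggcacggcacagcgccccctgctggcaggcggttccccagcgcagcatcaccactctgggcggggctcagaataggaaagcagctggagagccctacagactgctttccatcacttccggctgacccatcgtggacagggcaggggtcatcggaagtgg
The E2F core was searched on both strands and the E-box, which reads the same on both, in the 300-base promoters of the RefSeq table. Repressors and targets had 1 promoter per gene. The protein-coding shares instead count all 21262 promoters of 17491 genes, tested or not, so the 2 sides differ in unit and set. An E2F core was in 4 of the 9 repressor promoters with a sequence (44.4%) and in 15 of the 33 tested targets with one (45.5%), against 25.8% of 21262 promoters of protein-coding genes. An E-box was in 2 of 9 repressor promoters (22.2%) and 33.3% of target promoters, against 7.84% of protein-coding ones. The T-box letters GGTGTGA, on both strands, were in 0 of 9 repressor promoters and 9.09% of target promoters, against 3.68% of protein-coding ones. Among all 64 listed targets with a sequence, tested or not, 40.6% held an E2F core, 31.2% an E-box and 6.25% the T-box letters. The repressor promoters held a median of 24 CpG and the tested targets 18, against 13 in protein-coding ones, and the part of this base composition in the shares was not tested. Of the 6 called targets with a sequence, 2 held an E2F core (33.3%), 1 an E-box (16.7%) and 0 the T-box letters, with a median of 12 CpG.

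**Figure D5:**
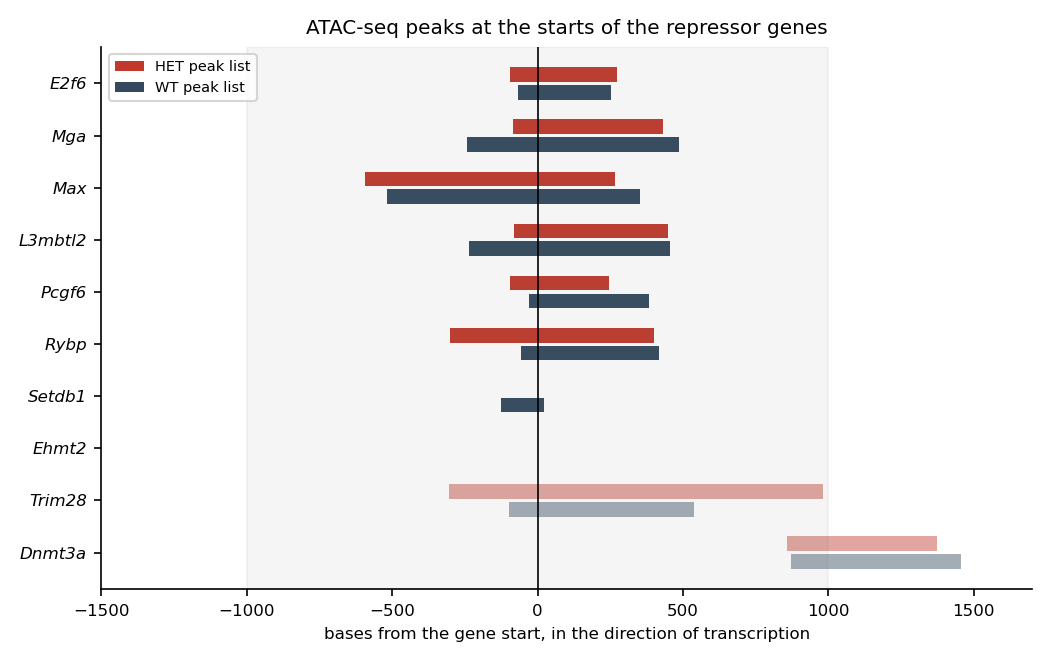
ATAC-seq peaks near the starts of the repressor genes in the HET list (red, upper bars) and WT list (blue, lower bars), in bases from the gene start, with the 1000 bases on each side shaded; paler bars are placed on RefSeq starts. E2f6, Mga, Max, L3mbtl2, Pcgf6 and Rybp have a bar in both lists, Setdb1 in the WT list alone, and Ehmt2 none.

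Open chromatin was read as a peak within 1000 bases of the gene start. All 6 PRC1.6 genes had one in both lists, and among the 4 other repressors Setdb1 alone had one, in the WT list. In all, 6 of 10 had a peak in the HET list and 7 of 10 in the WT list, beside 63.6% of tested genes in the HET list and 57.2% in the WT list, and 6 had one in both, beside 55.6%. Among the 9082 tested genes at or above the lowest of the 10 in RPKM, 81.6% had a HET peak and 75.2% a WT peak. Since each list merges libraries and holds no heights, a presence cannot be tested between genotypes, and the HET list was longer, with 30862 peaks against 19272 in the WT list.

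The Setdb1 peak of the WT list (chr3:95357182-95357328) was 147 bases wide, where the shortest of that list was 139 bases, and a peak in the WT list alone was found for 1.62% of tested genes. The E2f6 peak spanned chr12:16810868-16811235 in the HET list and chr12:16810896-16811214 in the WT list. Widths for the PRC1.6 genes ran from 340 bases (Pcgf6) to 857 bases (Max) in the HET list and from 319 bases (E2f6) to 867 bases (Max) in the WT list, and each pair overlapped. Pcgf6 lost its HET peak when the HET list was limited to its widest peaks in equal number to the WT list, leaving 5 of 10. The nearest peak to the Ehmt2 start ended 3804 bases away in the HET list and 3814 bases away in the WT list. For Trim28 and Dnmt3a the start in the count annotation lies away from the RefSeq start, by 25038 bases for Trim28; with RefSeq starts, chosen after seeing the data, both gained a peak in both lists, for 8 of 10 in the HET list and 9 of 10 in the WT list, beside 65.8% of tested genes in the HET list and 59.2% in the WT list.

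Among the 40 tested germline targets 10 had a promoter peak in the HET list and 9 in the WT list, and among the 7 that rose 1 had a peak in the HET list (Prss41) and 0 in the WT list. Of all 106 genes called higher, 54 had one in the HET list and 37 in the WT list. At the promoters of the targets printed above, no peak of either list was found within 1000 bases.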

How the data were processed

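RNA-seq counts of 14 frontal cortex libraries and 2 ATAC-seq peak lists were used. The authors deposited raw counts per gene from featureCounts 2.0.1, over exons by gene ID with strand ignored, per the file headers, on Ensembl GRCm38 release 102. STAR and Trimmomatic were named without versions, and MACS3 without settings, per the submitters' processing notes. The deposited peak lists hold chromosome, start and end only (mm10, the assembly of GRCm38). Reads overlapping more than 1 gene were left out by default, so shared exons can lower a count, and mates of a pair may each be counted.

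From these, genes were kept by filterByExpr with genotype as the group (18050). TMM scaling came before edgeR 4.0.16 (robust quasi-likelihood, two-sided, Benjamini-Hochberg over all genes tested, threshold 0.05, called where under it) in R 4.3.3. Errors are SD over 7 libraries, each 1 mouse per the labels' protocols. DESeq2 1.42.0, limma-voom (limma 3.58.1), other filters, marker covariates, the replicate block, label subsets and left-out libraries were alternatives. A promoter peak overlaps 1000 bases either side of the outermost exon end. RPKM uses the exon length in the count files. Promoter sequences are RefSeq's (GRCm38.p6). Samples were grouped by genotype label. The 10 genes and all lists were chosen with earlier results of these data known. Named were all 10, up to 8 called genes of each list or, with none called, the 2 smallest unadjusted p, and marker genes with the highest WT level. The relatives of the 10 given per length, and Adnp, Chadl, Tnp1 and Pgk2, were named outside this rule. So were Cbx6, Phc3 and Tet1, called by DESeq2 or limma-voom but not by edgeR, the markers Slc1a3, Npy, Dlx1 and Otx2, and E2f8. Not analysed here were Hi-C and the PAT and Control samples. The result of 1 gene is not reported here, and it was left out of the list counts.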

Additional observations from a re-analysis of the deposited data

Results flagged for a closer look

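HET 6 stood apart from the other HET libraries for 3 of the 10 genes, by a gap to its nearest neighbour that, as a share of the whole HET range, exceeded Dixon's 95% critical value. E2f6 was lowest there at 26.61 CPM, with the next HET library at 39.06 CPM (gap 0.646 of the range). L3mbtl2 was highest there at 35.39 CPM, with the next at 30.42 CPM (gap 0.658 of the range). Trim28 was highest there at 149.3 CPM, with the next at 128.4 CPM (gap 0.72 of the range). Chance marks about 1 in 20 groups in this way, and 20 groups were looked at. HET 6 stood apart in the same way for 6.23% of all 18050 tested genes, the most of any library, and some HET library did so for 9.66%, against 6.12% for some WT library. HET 6 also had the highest excitatory (6633 CPM), choroid plexus (739 CPM), dividing cell (49.5 CPM) and spermatogenic (4.56 CPM) marker sums among HET libraries. Its oligodendrocyte (2326 CPM), oligodendrocyte precursor (217 CPM), microglial (238 CPM), endothelial (178 CPM) and thalamic (215 CPM) sums were the lowest among HET libraries. The part of these sums in the 3 genes was not tested.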

How the results depend on the processing

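In 24 alternatives 0 of the 10 repressor genes were called in any. The share of all tested genes called ran from 0.0211% (polyA label alone) to 10.7% (limma-voom), so 0 of 10 is near it. Of the 240 fold changes, 224 kept their sign and 16 turned it; log2 values ran from -0.143 to 0.169 and the smallest adjusted p was 0.0958 (Setdb1, limma-voom). Signs turned for E2f6 with the polyA label alone (-0.118), the excitatory covariate (-0.136) and the 3 marker covariates (-0.143), for Max with the excitatory covariate (-0.008) and the 3 covariates (-0.007), for L3mbtl2 without HET 4 and HET 6 together, chosen after seeing the data (-0.006), for Pcgf6 with the polyA label (-0.009), and for Ehmt2 with that label (0.04), the excitatory covariate (0.046) and the 3 covariates (0.037). With each library left out in turn, log2 fold changes ran from -0.012 to 0.103 for E2f6, -0.006 to 0.038 for Max, -0.005 to 0.068 for L3mbtl2 and -0.021 to 0.089 for Pcgf6. The cause was not tested.

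Counts of calls over all genes moved between the alternatives. Higher and lower calls in HET were 106 and 69 in edgeR, 768 and 735 in DESeq2, 949 and 985 in limma-voom, 67 and 39 with no filter, 4 and 0 with the polyA label alone, 11 and 0 with the excitatory covariate and 18 and 3 with the 3 covariates; without HET 4 and HET 6 there were 40 lower. Leaving out 1 library gave 10 to 791 higher and 1 to 881 lower (fewest without HET 1, most without WT 4), 0 to 0 of the repressors, and 4 to 14 higher and 0 to 5 lower in the 7 pathway lists. These lists held 8 higher and 0 lower in edgeR, 14 and 3 in DESeq2, 16 and 5 in limma-voom, and higher 5 with no filter, 3 with the polyA label, 4 with the excitatory covariate and 5 with the 3 covariates. With the replicate number as a block, 7 genes were called higher and 3 lower, 4 of the lists higher, with E2f2, Rec8, Syce1 and Tdrd9 lost, and 0 repressors. No pairing by number was visible in the expression values: correlations of same-numbered libraries ran from -0.284 to 0.334, and 1 of 7 matched its own number best. These correlations cannot tell whether same-numbered mice were littermates or were handled together. The peak lists carry no depth, so an absent peak may be one not detected.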

Other observations

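Marker genes of the other cell types that frontal cortex tissue can hold were read beside the repressors, and 0 genes of any marker list were called by edgeR. Oligodendrocyte markers summed to 2326 to 10280 CPM in HET and 4510 to 7801 CPM in WT, where Mbp, the myelin basic protein gene, averaged 2541 ± 874 CPM in HET and 2315 ± 468 CPM in WT. Astrocyte markers summed to 3368 to 3939 CPM in HET and 3736 to 4561 CPM in WT, with a positive fold change for 5 of 8 genes, a median log2 fold change of 0.149 and 2 genes with an unadjusted p under 0.05, both lower in HET (Slc1a2 and Slc1a3). Among them the glutamate transporter gene Slc1a2 had the highest WT level, with 1643 ± 281.5 CPM in HET against 2071 ± 392.5 CPM in WT. Markers of inhibitory neurons summed to 1088 to 1793 CPM in HET and 1059 to 1759 CPM in WT, with a negative fold change for 7 of 10 genes, a median log2 fold change of -0.13 and 2 genes with an unadjusted p under 0.05, both lower in HET (Npy and Dlx1). Gad1 had the highest WT level among them, with 469 ± 97.5 CPM in HET against 424 ± 84.5 CPM in WT. The microglial list had a negative fold change for 8 of 8 genes and 3 with an unadjusted p under 0.05. Csf1r, its gene with the highest WT level, averaged 91.0 ± 11.1 CPM in HET against 105 ± 6.345 CPM in WT.

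Markers of neighbouring regions varied most between libraries. The striatal list summed to 170.1 to 2364 CPM in HET and 183 to 1761 CPM in WT, with Penk reading 211 ± 199 CPM in HET against 172.5 ± 150.2 CPM in WT. The choroid plexus list summed to 24.95 to 739 CPM in HET and 9.86 to 432 CPM in WT, with Ttr reading 129.6 ± 253 CPM in HET against 153 ± 171 CPM in WT. Its fold changes were negative for 5 of 7 genes and positive for 2. The 1 gene of this list with an unadjusted p under 0.05, Otx2, was higher in HET (log2 fold change 1.625). Rora, the thalamic marker with the highest WT level, averaged 121 ± 81.9 CPM in HET and 80.4 ± 21.9 CPM in WT. The list of dividing cells summed to 39.97 to 49.5 CPM in HET and 44.99 to 55.1 CPM in WT, with a negative fold change for 8 of 8 genes, 5 with an unadjusted p under 0.05, and Pcna reading 33.9 ± 2.96 CPM in HET against 39.2 ± 3.51 CPM in WT. Blood markers had 5 of 7 genes with an unadjusted p under 0.05. Hbb-bs, the blood marker with the highest WT level, read 72.3 ± 17.9 CPM in HET against 115 ± 49.3 CPM in WT. Endothelial Flt1 averaged 77.2 ± 6.945 CPM in HET and 74.6 ± 6.38 CPM in WT, mural Rgs5 111 ± 7.01 CPM in HET and 106 ± 13.8 CPM in WT, and Olig1 of oligodendrocyte precursors 151 ± 47.8 CPM in HET and 140.0 ± 26.7 CPM in WT. Fold changes in these lists went both ways. They were positive for 4 and negative for 2 endothelial genes, and positive for 6 and negative for 2 mural and meningeal genes. Among oligodendrocyte precursor genes 3 were positive and 3 negative. Zpbp, the spermatogenic marker with the highest WT level, averaged 2.02 ± 0.290 CPM in HET and 1.58 ± 0.349 CPM in WT.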
